A study of Mus musculus with 8 samples.

Results

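The constitutive proteasome subunits were the 35 protein-coding genes named Psma1 to Psma8, Psmb1 to Psmb7, Psmc1 to Psmc6 and Psmd followed by a number, chosen by symbol from the 54532 genes of the deposited table. The RNA came from macrophages that had been differentiated in culture from mouse bone marrow. The study had 4 groups of 2 libraries: WT without LPS, ELF1 KO without LPS, WT with LPS and ELF1 KO with LPS. LPS, the bacterial cell wall glycolipid that activates macrophages through Tlr4, was given for 6 h, and the M1 label was read as that arm because LPS is the stimulus the study names. Elf1 belongs to the ETS transcription factors. The sources used here do not describe the KO allele, the strain, or the sex and age of the mice. They also do not say whether libraries of one group came from separate animals, so the p-values rest on the spread between libraries, which may be technical.

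The proteasome is the large protease that degrades ubiquitin-tagged proteins in the cytoplasm and nucleus. Its core particle is a barrel of stacked rings: outer alpha rings, which form the gate, and inner beta rings, which hold the catalytic sites. A regulatory particle caps the barrel, with a base of ATPases that unfold substrates and a lid that removes ubiquitin. In macrophages exposed to inflammatory signals, the catalytic subunits Psmb5, Psmb6 and Psmb7 can be replaced during assembly by Psmb8, Psmb9 and Psmb10, which gives the immunoproteasome. Psmd5, Psmd9 and Psmd10 are named as subunits but act as chaperones that help assemble the base and then leave it.

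Rebuilt reads numbered 15753259 to 18058974 per library. The 6 macrophage markers, among them Adgre1, Csf1r and Cd68, summed to 2009 to 2331 FPKM in every library. Within that sum, Fcgr1 and Adgre1 were higher in WT with LPS, Mertk, Csf1r and Cd68 were lower, and Itgam overlapped. Fcgr1 went from 48.5 and 50.6 to 550 and 586 FPKM, and Mertk from 32.2 and 29.1 to 8.36 and 8.11 FPKM. FPKM is a read count corrected for the length of the gene and the size of the library. The 22 markers of other cell types each summed, by type, to at most 11.0 FPKM. That highest value was the 4 fibroblast markers in WT without LPS replicate 1, and the T cell marker Cd3d was at 0 in all 8 libraries. Elf1 itself read at 12.4 and 14.1 FPKM in WT and 16.9 and 16.1 FPKM in KO without LPS, and at 21.9 and 22.4 FPKM in WT and 16.5 and 17.9 FPKM in KO with LPS. Elf1 RNA was therefore counted in the libraries labelled ELF1 KO at levels near those of WT, and a gene total cannot check a deletion of part of the gene. The genotype groups below are those of the labels.

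Of the 35 genes, 34 were expressed above the test minimum of 1 FPKM in at least 2 libraries, and all 34 were above 2 FPKM in every library. The exception was Psma8, the alpha subunit paralogue known from testis, at 0.0433 to 0.539 FPKM. In WT without LPS the mean level of the 34 ranged from 2.60 FPKM for Psmd9 to 67.2 FPKM for Psmd2, with a median of 16.2 FPKM. With LPS the WT range widened to 2.79 to 196 FPKM, with a median of 27.4 FPKM. Psmd2, Psmb6 and Psmd8 had the highest levels without LPS, at 67.2, 56.5 and 50.7 FPKM, and Psma6, Psmb6 and Psma5 had the highest with LPS, at 196, 169 and 98.9 FPKM. The deposited length counts all exons of a gene, so the order depends on it: divided by the length of the principal transcript instead, Psmb6 ranked first in WT both without and with LPS. The plot of levels by subunit shows that most of the spread between genes exceeded the spread between libraries of a group.

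**Figure D1:**
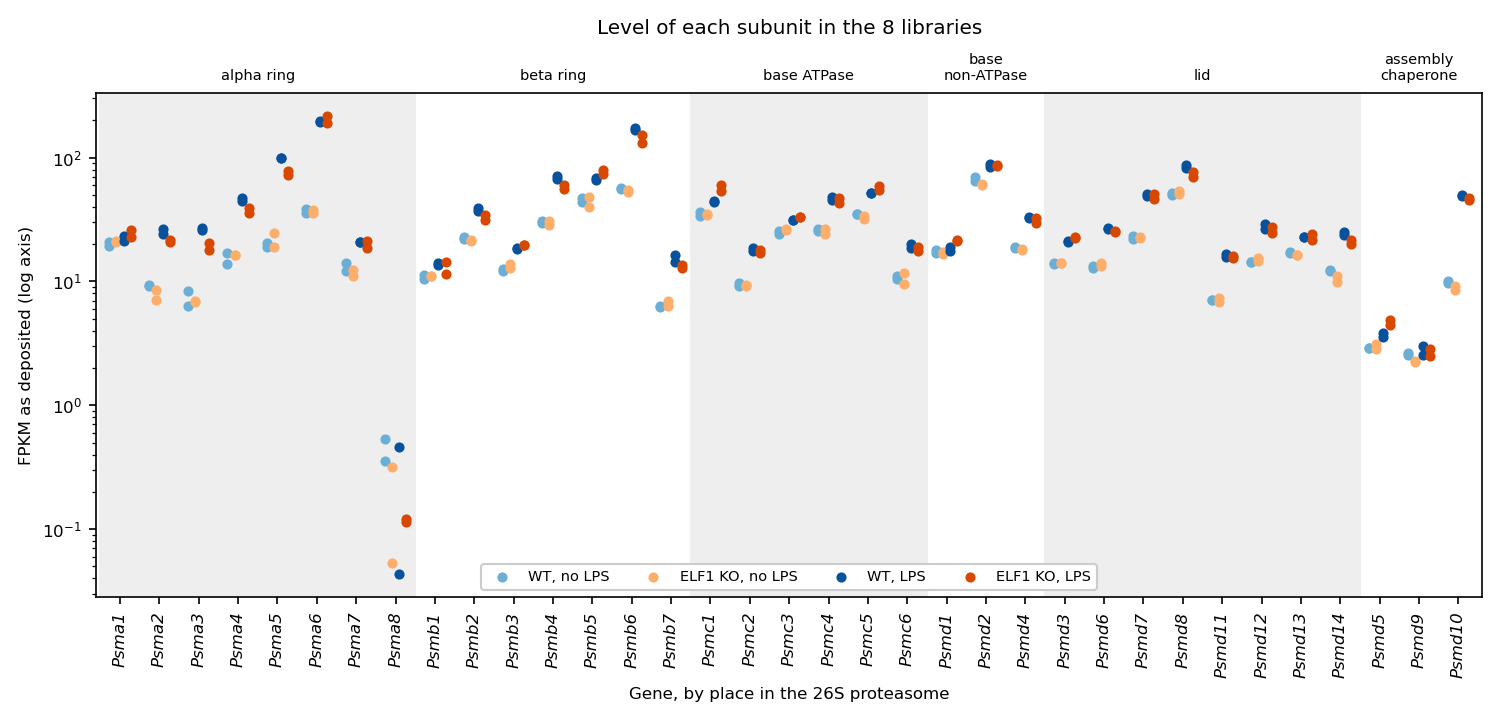
FPKM as deposited (log axis) of the 35 genes, grouped by their place in the proteasome, with 1 point per library and 2 libraries per group. Psma8 lies below 1 FPKM in every library, while Psma6, Psma5 and Psmd10 show the widest distance in WT between libraries without and with LPS among the other 34.

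LPS was followed by higher deposited levels of nearly every subunit, by amounts that differed from gene to gene. In WT, 31 of the 34 genes tested rose, 0 fell and 3 did not pass, by limma on log2(FPKM + 1) with Benjamini-Hochberg adjustment over all genes. In the same comparison 71.5% of the 11887 genes tested passed and 37.7% rose, so a rise was common among all genes too. In bulk RNA, fewer cells of a type and less RNA per cell cannot be told apart. The median change of the subunits was 0.78 on the log2 scale, beside 0.04 over all genes tested, and the range was 0.06 to 2.37. All 34 lay above the all-gene median, 20 were in the top 25% of all genes and 6 in the top 10%. The 6 were Psma6, Psma5, Psmd10, Psma3, Psmb6 and Psma4. Libraries without and with LPS did not overlap for 32 of the 34, beside 44.3% of all genes that were higher and 40.6% that were lower without overlap. The same changes in KO were close in size: 31 rose, 0 fell and 3 did not pass, with a median of 0.77 beside 0.02 over all genes. There 65.9% of all genes passed and 34.7% rose. Libraries did not overlap for 34 of 34 in KO, beside 42.7% of all genes higher and 40.0% lower.

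The size of these rises, and for some subunits their direction, depended on how libraries were scaled. As deposited, summed FPKM was 229757 to 245560 in the libraries without LPS, 362748 and 375795 in WT with LPS and 322268 and 318681 in KO with LPS. Rescaling to TPM, where every library sums to the same total, moved the median LPS change of all genes to -0.51 in WT and -0.42 in KO. Under TPM, 18 subunits rose and 7 fell in WT, and 22 rose and 3 fell in KO. Under total-read scaling 17 rose and 8 fell in WT, and 23 rose and 2 fell in KO. Under quantile normalization 19 rose and 8 fell in WT, and 25 rose and 4 fell in KO. TPM and total-read scaling apply 1 factor to each library and so leave the position of a gene relative to the median of all genes nearly as it was, while quantile normalization can move it. With quantile normalization 26 of 34 subunits lay above that median in WT and 30 in KO, beside 34 in both as deposited. In WT the median of the subunits exceeded that of all genes by 0.75 as deposited, 0.73 with TPM, 0.65 with total reads and 0.38 with quantile normalization. In KO the excess was 0.75, 0.74, 0.67 and 0.48 in the same order.

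**Figure D2:**
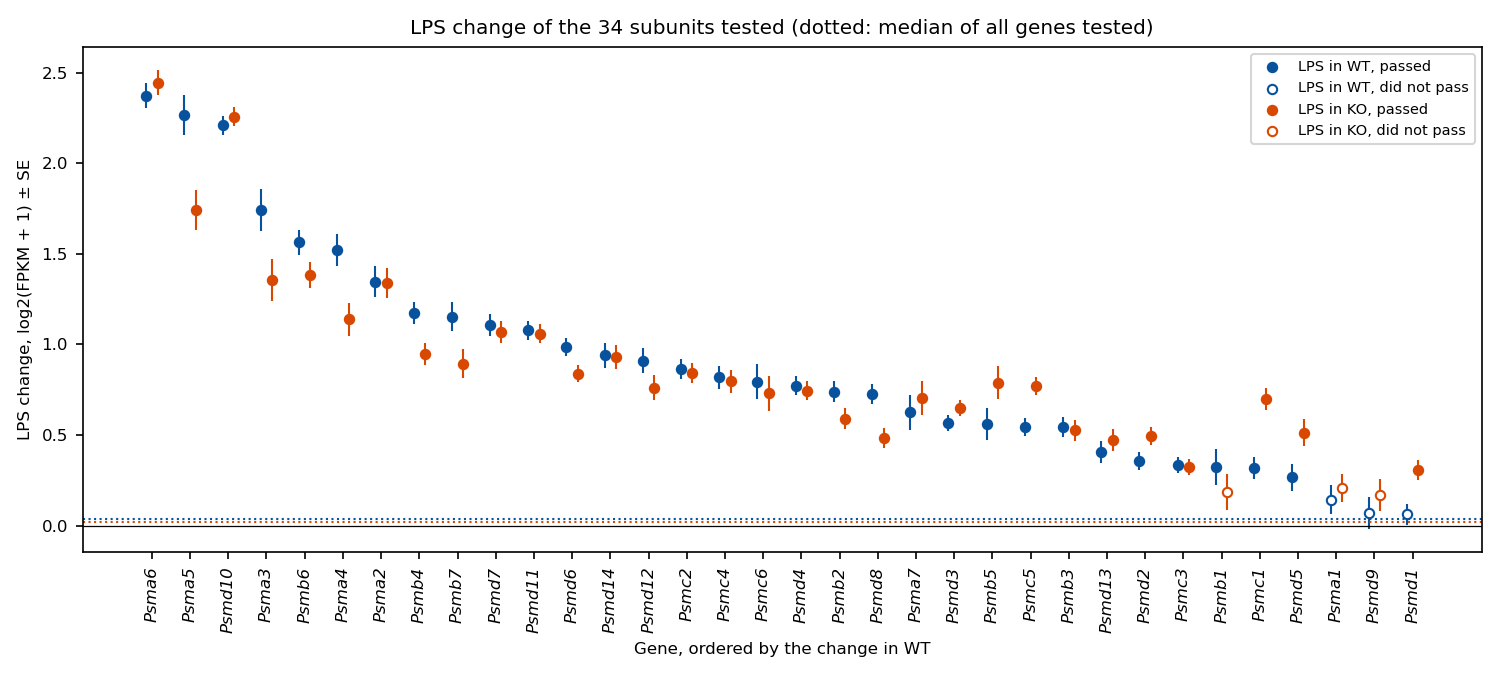
LPS change of the 34 subunits tested, as log2(FPKM + 1) ± SE from limma, in WT and KO; filled points passed an adjusted p under 0.05 and dotted lines mark the median of all genes tested. The changes run from 2.37 for Psma6 to 0.06 for Psmd1 in WT, and the KO points lie close to the WT points except for a few genes such as Psma5, Psma4 and Psmc1.

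The promoters of the 3 subunits with the largest rise in WT, and of the 3 with the smallest rise among those that hold an ETS motif, are shown because Elf1 binds motifs of the ETS type. Each is the RefSeq sequence on GRCm38.p6, with 180 bases before the start site and 20 bases from it on, read 5′ to 3′ on the gene's strand. The RefSeq start site can differ from the start of the principal transcript. For Psmd13 it is at 140882394, inside the gene, while the principal transcript starts at 140881968. Capitals mark the ETS letters CCGGAAG and the NF-Y letters CCAAT on either strand.
Psma6, chr12:55398645-55398844, plus strand: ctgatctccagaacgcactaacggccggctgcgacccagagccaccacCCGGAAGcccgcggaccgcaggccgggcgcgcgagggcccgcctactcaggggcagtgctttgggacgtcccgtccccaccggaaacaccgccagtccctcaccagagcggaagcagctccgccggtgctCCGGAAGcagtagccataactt
Psma5, chr3:108256746-108256945, plus strand: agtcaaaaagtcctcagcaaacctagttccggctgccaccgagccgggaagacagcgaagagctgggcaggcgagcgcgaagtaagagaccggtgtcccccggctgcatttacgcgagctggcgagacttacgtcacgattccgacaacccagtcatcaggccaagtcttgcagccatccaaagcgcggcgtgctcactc
Psmd10, chrX:140956692-140956891, minus strand: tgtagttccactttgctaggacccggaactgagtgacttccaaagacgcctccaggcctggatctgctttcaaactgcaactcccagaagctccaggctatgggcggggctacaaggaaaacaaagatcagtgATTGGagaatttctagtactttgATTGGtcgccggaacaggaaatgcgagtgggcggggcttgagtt
Psmd13, chr7:140882214-140882413, plus strand: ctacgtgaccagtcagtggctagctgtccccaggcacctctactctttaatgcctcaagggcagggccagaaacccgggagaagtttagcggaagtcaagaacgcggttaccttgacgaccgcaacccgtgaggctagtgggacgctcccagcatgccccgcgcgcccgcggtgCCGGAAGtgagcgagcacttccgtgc
Psmd2, chr16:20651472-20651671, plus strand: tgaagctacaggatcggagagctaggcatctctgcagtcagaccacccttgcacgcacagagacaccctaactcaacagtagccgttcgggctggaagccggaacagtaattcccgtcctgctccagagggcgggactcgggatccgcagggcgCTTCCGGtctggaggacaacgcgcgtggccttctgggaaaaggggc
Psmc1, chr12:100110022-100110221, plus strand: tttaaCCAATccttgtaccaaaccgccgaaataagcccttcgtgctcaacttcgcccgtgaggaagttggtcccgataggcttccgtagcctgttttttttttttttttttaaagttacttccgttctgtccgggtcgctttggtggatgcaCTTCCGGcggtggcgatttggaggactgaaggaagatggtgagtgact

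Of the 35 genes, 28 had a promoter window in the RefSeq table, from 250 bases before to 50 bases after the start, and Psma8, Psmb1, Psmb2, Psmb7, Psmc3, Psmd3 and Psmd7 had none. The ETS letters CCGGAAG, searched on both strands, were in 10 of the 28, or 35.7%, beside 21.9% of the windows of genes tested and 9.93% of all 27025 windows. Psma6 held the letters on the printed stretch, and Psma5 and Psmd10 held none in their windows. The median LPS change in WT was 0.83 for the 10 subunits with the letters and 0.77 for those without. The NF-Y letters CCAAT were in 39.3% of the subunit windows beside 42.2% of the windows of genes tested. The antioxidant response element letters TGACNNNGC, the core of the site used by Nfe2l1 and Nfe2l2, were in 17.9% beside 17.4%. The AP-1 letters TGANTCA were in 7.14% beside 6.36%, the interferon-stimulated response element in 10.7% beside 4.14%, and the NF-kB motif in 3.57% beside 6.25%. These matches describe letters only and overlap between motifs was allowed.

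Among the alpha ring genes, whose proteins form the outer rings and the gate, 6 of 7 tested rose in both genotypes. Psma6 (chr12:55384222-55418454 on mm10) was at 35.9 and 38.1 FPKM in WT without LPS and at 195 and 197 FPKM in WT with LPS. In KO it was at 35.5 and 37.5 FPKM without LPS and at 217 and 190.0 FPKM with LPS. Every library with LPS was above every library without it, and the genotypes overlapped. The change was 2.37 ± 0.07 (SE) in WT (adjusted p = 1.51e-07) and 2.45 ± 0.07 in KO (adjusted p = 1.60e-07), the largest of the subunits in each. Rebuilt reads of Psma6 rose as well, from 972 and 1022 to 3291 and 3133 in WT, and its change was 1.43 with quantile normalization, 1.75 with total reads and 1.80 with TPM.

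Psma5 (chr3:108256926-108279974) was at 19.1 and 20.4 FPKM in WT without LPS and at 98.5 and 99.3 FPKM with LPS. The KO libraries were at 24.8 and 19.1 FPKM without LPS and at 77.7 and 72.7 FPKM with LPS. All libraries with LPS were above all without, and with LPS both KO libraries were below both WT libraries. The LPS change was 2.27 ± 0.11 in WT (adjusted p = 1.93e-06) and 1.74 ± 0.11 in KO (adjusted p = 9.73e-06). The near-identical processed pseudogenes Gm8394 and Gm12989 carried reads equal to 13.4% of those of Psma5 and the counting could have split reads among them; with them summed the changes were 2.27 in WT and 1.73 in KO.

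Psma3 (chr12:70974621-70996347) was at 6.32 and 8.30 FPKM in WT without LPS and at 26.1 and 27.1 FPKM with LPS. Levels in KO were 6.96 and 6.88 FPKM without LPS and 20.6 and 18.0 FPKM with LPS. Its libraries also separated by LPS without overlap, and with LPS the KO libraries were the lower pair. The LPS change was 1.74 ± 0.12 in WT (adjusted p = 9.95e-06) and 1.36 ± 0.12 in KO (adjusted p = 4.66e-05). The copy Gm13835 matched Psma3 at 100% over 665 bases, and the 4 near-identical copies carried reads equal to 34.2% of those of Psma3. With the copies summed the LPS change was 1.81 in WT and 1.41 in KO.

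Psma4 and Psma2 rose by 1.52 and 1.35 in WT and by 1.14 and 1.34 in KO, and Psma7 rose by 0.62 in WT and 0.70 in KO. The span of Psma2, introns included, overlaps that of AW209491 over 8943 bases. Reads of AW209491 came to 9.60% of those of Psma2. Psma1 was the alpha gene that did not pass in either genotype as deposited. It was at 19.2 and 20.9 FPKM in WT without LPS and at 21.4 and 23.2 FPKM with LPS, a change of 0.14 ± 0.08 (adjusted p = 0.143). In KO the change of Psma1 was 0.21 ± 0.08 (adjusted p = 0.0536). Its rebuilt reads were fewer with LPS, 861 and 883 in WT beside 1244 and 1344 without. Under TPM Psma1 passed as lower, at -0.45 in WT (limma, adjusted p = 0.000931) and -0.26 in KO (adjusted p = 0.0143). With quantile normalization it was at -0.35 in WT (adjusted p = 0.00526).

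Because ring proteins assemble in fixed proportion, the share of each gene within its ring was also read within each library, which a single factor per library cannot alter. Psma6 made up 28.3 to 31.4% of the summed FPKM of Psma1 to Psma7 in the 4 libraries without LPS, 44.9 and 45.1% in WT with LPS and 51.3 and 50.2% in KO with LPS. The share of Psma1 was 16.3 to 17.8% without LPS, 4.91 and 5.32% in WT with LPS and 6.17 and 6.02% in KO with LPS. Psma7 went from 9.30 to 12.0% without LPS to 4.75 to 4.99% with LPS. The level of a share depends on the gene length used, here the deposited one. With principal transcript lengths Psma6, Psma1 and Psma7 had means of 43.8, 49.3 and 44.3 FPKM in WT without LPS. In WT with LPS these means were 232, 54.7 and 69.9 FPKM. In all 4 libraries with LPS the alpha genes were further apart from each other than without it. In the beta ring, Psmb6 took 29.4 to 30.8% of the summed FPKM without LPS and 39.1 to 43.8% with LPS. The share of Psmb5 was 23.2 to 25.7% without LPS, 17.7 and 16.7% in WT with LPS and 21.3 and 22.0% in KO with LPS. In the ATPase ring the widest difference between any pair of libraries was 5.15 percentage points, for Psmc1, beside 23.0 points for Psma6 and 14.4 points for Psmb6.

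**Figure D3:**
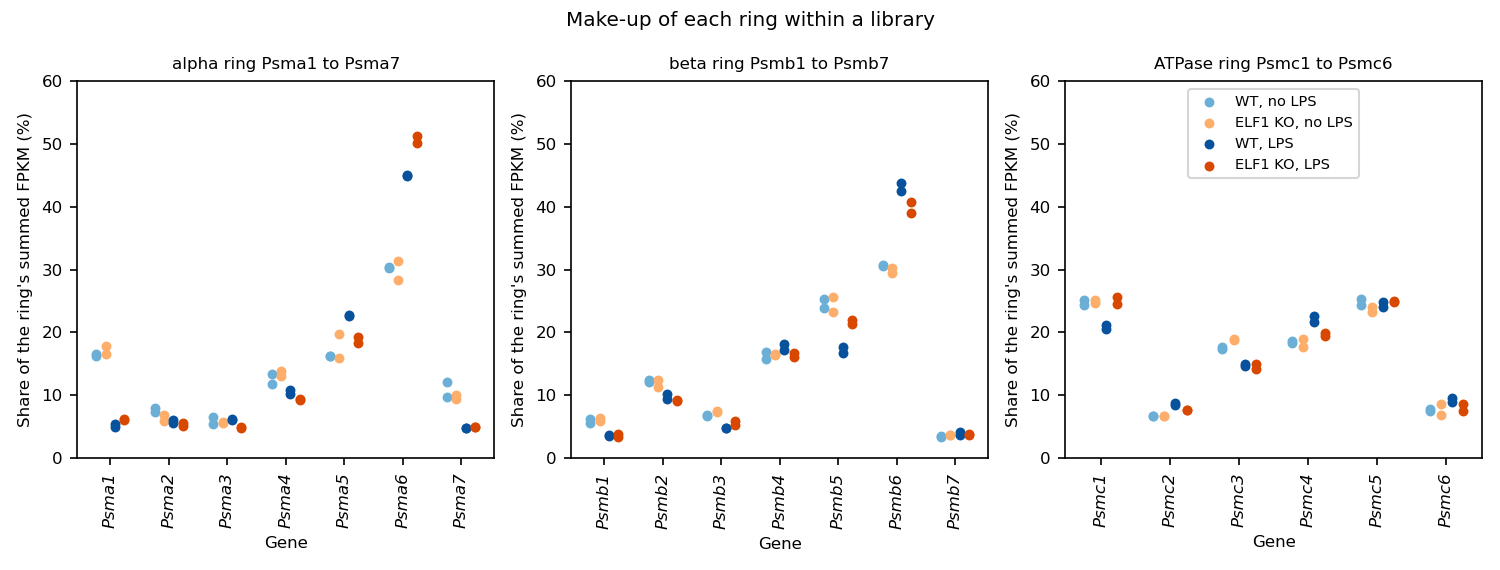
Share of each gene in the summed FPKM of its ring (%), with 1 point per library for the alpha ring, the beta ring and the ATPase ring. Shares use the deposited gene lengths and their level depends on them. Psma6 rises from 28.3 to 31.4% without LPS to 44.9 to 51.3% with LPS while Psma1 and Psma7 shrink, and no gene of the ATPase ring spans more than 5.15 points.

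As deposited all 7 beta ring genes rose with LPS in WT, with a median of 0.74, and 6 of 7 did so in KO. Psmb6 (chr11:70525367-70527858), the caspase-like catalytic subunit, was at 57.0 and 56.1 FPKM in WT without LPS and at 166 and 173 FPKM with LPS. KO cells were at 55.2 and 52.5 FPKM without LPS and at 153 and 132 FPKM with LPS. Libraries with LPS were all above those without, and the KO libraries with LPS were below the WT ones. The change was 1.56 ± 0.07 in WT (adjusted p = 1.29e-06) and 1.38 ± 0.07 in KO (adjusted p = 3.09e-06).

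Psmb5 (chr14:54614119-54618022), the chymotrypsin-like catalytic subunit, was at 47.2 and 43.6 FPKM in WT without LPS and at 68.9 and 65.9 FPKM with LPS. Its KO levels were 48.1 and 40.2 FPKM without LPS and 79.5 and 74.2 FPKM with LPS. Libraries with LPS were above those without in both genotypes. As deposited its change was 0.56 ± 0.09 in WT (adjusted p = 0.00103) and 0.79 ± 0.09 in KO (adjusted p = 0.000208). In WT it turned to -0.29 with quantile normalization, -0.06 with total reads and -0.03 with TPM.

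Psmb7 (chr2:38588036-38644087), the trypsin-like catalytic subunit, was at 6.21 and 6.38 FPKM in WT without LPS and at 16.3 and 14.3 FPKM with LPS. In KO it was at 6.96 and 6.31 FPKM without LPS and at 13.6 and 12.8 FPKM with LPS. No library with LPS overlapped those without. The change was 1.15 ± 0.08 in WT (adjusted p = 1.11e-05) and 0.89 ± 0.08 in KO (adjusted p = 5.32e-05), and it was positive under each scaling in both genotypes. The span of Psmb7, introns included, overlaps that of Nek6 on the other strand over 6571 bases. Between their transcripts the match found was 255 bases at 100% identity. Nek6 carried 1967 to 2656 reads per library over its whole length, beside 466 to 760 for Psmb7. Whether the counting used strand is not given in the sources used here.

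The structural beta subunits Psmb4 and Psmb2 rose by 1.18 and 0.74 in WT and by 0.95 and 0.59 in KO, and Psmb3 rose by 0.54 and 0.53. As deposited Psmb1 rose by 0.32 ± 0.10 in WT (adjusted p = 0.0223) and changed by 0.18 ± 0.10 in KO (adjusted p = 0.144). Under TPM Psmb1 was at -0.25 in WT (limma, adjusted p = 0.0511) and at -0.27 in KO (adjusted p = 0.0398). Psmb3 was at -0.02 in WT under TPM. The call of Psmb1 in WT was lost without WT replicate 1 of the libraries without LPS and without either WT library with LPS, with adjusted p of 0.0587 to 0.108.

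The ratio of each immunoproteasome catalytic subunit to the constitutive one it replaces was read within each library, and it was higher with LPS for all 3 pairs in both genotypes. Psmb8 to Psmb5 was 0.296 and 0.322 in WT without LPS, 0.265 and 0.292 in KO without LPS, 1.80 and 1.91 in WT with LPS and 1.16 and 1.16 in KO with LPS. Psmb9 to Psmb6 was 0.0842 and 0.0753 in WT and 0.0837 and 0.0873 in KO without LPS, and 0.255 and 0.275 in WT and 0.199 and 0.211 in KO with LPS. Psmb10 to Psmb7 was 3.0 and 2.88 in WT and 2.28 and 2.31 in KO without LPS, and 16.2 and 19.8 in WT and 13.0 and 12.4 in KO with LPS. For each pair the 4 libraries with LPS lay above the 4 without, and with LPS both KO libraries lay below both WT libraries. Without LPS the KO libraries were also the lower pair for Psmb8 to Psmb5 and Psmb10 to Psmb7. With 2 libraries a group an exact permutation test cannot give a p below 0.333, so these ratios are a description. The level of a ratio depends on gene length: with principal transcript lengths Psmb8 to Psmb5 was 0.446 to 0.541 without LPS and 1.95 to 3.22 with LPS. Psmb9 shares 212 bases of exon sequence with the neighbouring gene Tap1, which carried far more reads.

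**Figure D4:**
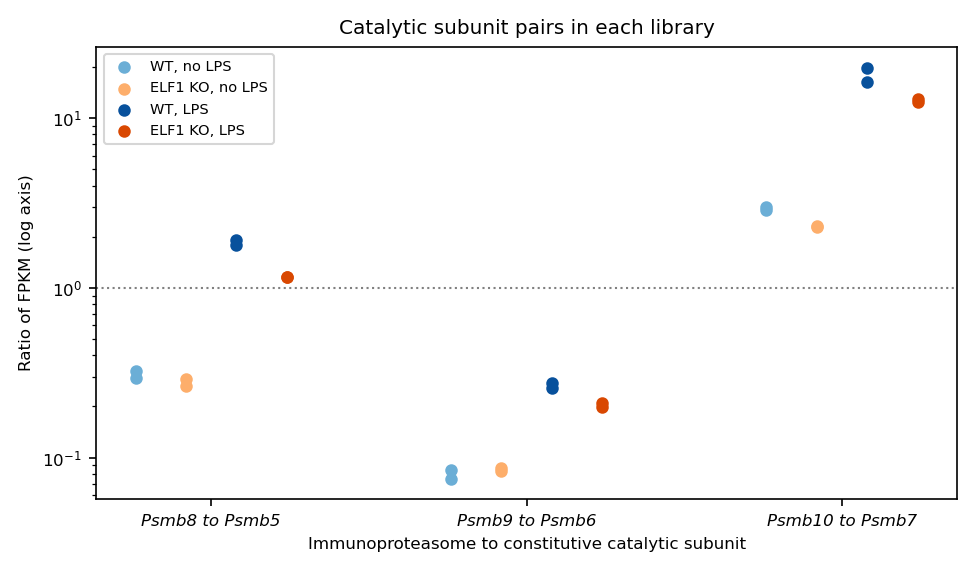
Ratio of FPKM (log axis) of each immunoproteasome catalytic subunit to its constitutive counterpart, with 1 point per library; the dotted line marks equal FPKM. All libraries with LPS lie above those without, and Psmb8 to Psmb5 crosses from 0.265 to 0.322 without LPS to 1.16 to 1.91 with LPS.

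The 6 ATPases of the base, Psmc1 to Psmc6, unfold substrates and thread them into the core. As deposited all 6 rose in both genotypes. Their changes were 0.32 to 0.86 in WT, with a median of 0.67, and 0.32 to 0.84 in KO, with a median of 0.75. None was in the top 10% of all genes. Psmc2 rose most in WT, by 0.86 ± 0.06 (adjusted p = 8.65e-06). Psmc3 and Psmc1 rose least, by 0.33 and 0.32, and under TPM they were at -0.26 and -0.27. Psmc3 overlaps Slc39a13 on the other strand, whose reads came to 46.2% of its own.

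In the base, the ubiquitin receptors and scaffolds Psmd1, Psmd2 and Psmd4 spanned a range of changes. Psmd4 (chr3:95032694-95042614), a receptor for ubiquitin chains, was at 19.1 and 18.5 FPKM in WT without LPS and at 33.0 and 32.6 FPKM with LPS, with no overlap. The KO libraries were at 17.9 and 18.4 FPKM without LPS and at 32.5 and 29.8 FPKM with LPS. Its change was 0.77 ± 0.05 in WT (adjusted p = 1.27e-05) and 0.74 ± 0.05 in KO (adjusted p = 1.90e-05).

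Psmd2 (chr16:20651652-20663414), a scaffold that docks shuttle factors and ubiquitin, was at 69.8 and 64.6 FPKM in WT without LPS and at 84.4 and 88.3 FPKM with LPS. Levels in KO were 61.4 and 60.6 FPKM without LPS and 86.2 and 86.7 FPKM with LPS. Deposited levels with LPS were all above those without, but rebuilt reads in WT went the other way, from 6181 and 5678 to 4651 and 4600. The change of Psmd2 as deposited was 0.36 ± 0.05 in WT (adjusted p = 0.000506) and 0.50 ± 0.05 in KO (adjusted p = 0.000105). In WT it was -0.51 with quantile normalization, -0.27 with total reads and -0.24 with TPM, and in KO it was -0.22, 0.03 and 0.03 in the same order. Psmd1, the other large scaffold, was at 17.1 and 17.9 FPKM in WT without LPS and at 19.1 and 17.5 FPKM with LPS, and these overlapped. It changed by 0.06 ± 0.06 in WT (adjusted p = 0.359) and rose by 0.31 ± 0.06 in KO (adjusted p = 0.00241) as deposited, but its TPM values gave -0.53 in WT and -0.15 in KO. Psmd1 overlaps Htr2b on the other strand, whose reads came to 7.97% of its own.

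All 8 lid genes rose in both genotypes, with a median of 0.93 in WT and 0.80 in KO. Psmd14 (chr2:61711694-61800376), the deubiquitinase of the lid, was at 12.3 and 12.2 FPKM in WT without LPS and at 25.2 and 23.7 FPKM with LPS. KO cells were at 11.1 and 9.98 FPKM without LPS and at 21.8 and 20.2 FPKM with LPS. LPS separated the libraries of both genotypes, and the KO libraries were the lower pair in each arm. Its change was 0.94 ± 0.07 in WT (adjusted p = 1.45e-05) and 0.93 ± 0.07 in KO (adjusted p = 1.85e-05). Its lid partner Psmd7 rose by 1.11 in WT and 1.07 in KO, and Psmd11 rose by 1.08 and 1.06. The least lid change in WT was that of Psmd13, 0.40 ± 0.06 (adjusted p = 0.000743), and in KO it was also that of Psmd13, 0.47. As deposited these rises held in both genotypes, but Psmd13 was at -0.18 in WT under TPM and Psmd3 at -0.01. Reads of Sirt3, on the other strand, came to 11.5% of those of Psmd13, and reads of the near copy A730017L22Rik to 9.82% of those of Psmd11, whose change in WT was 0.91 with its copies summed.

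The assembly chaperones of the base went separate ways. Psmd10 (chrX:140948429-140956728), also known as gankyrin, binds the ATPase Psmc4 and was at 9.62 and 10.1 FPKM in WT without LPS and at 48.8 and 50.1 FPKM with LPS. Its KO levels were 9.22 and 8.58 FPKM without LPS and 46.9 and 45.8 FPKM with LPS. The arms were far apart in both genotypes. Its change was 2.21 ± 0.05 in WT (adjusted p = 5.09e-08) and 2.26 ± 0.05 in KO (adjusted p = 5.94e-08), and it was between 1.61 and 1.92 under the other scalings. Psmd10 thus rose by an amount like that of the most changed alpha genes, while the ATPase it binds, Psmc4, rose by 0.82 in WT and 0.80 in KO.

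Psmd5 (chr2:34849734-34874968), a chaperone that binds the ATPase Psmc2, was at 2.90 and 2.92 FPKM in WT without LPS and at 3.83 and 3.58 FPKM with LPS. In KO it was at 2.84 and 3.12 FPKM without LPS and at 4.44 and 4.92 FPKM with LPS. Libraries with LPS were above those without and the KO pair was the highest. Its change was 0.27 ± 0.07 in WT (adjusted p = 0.0156) and 0.51 ± 0.07 in KO (adjusted p = 0.000795). In WT it was -0.22 with total reads and -0.24 with TPM, and leaving out either WT library without LPS, or replicate 1 of WT with LPS, gave adjusted p of 0.0518 to 0.0767. Psmd9 (chr5:123169413-123250131), the third of these chaperones, had the lowest level of the 34 genes tested. It was at 2.65 and 2.56 FPKM in WT without LPS, 3.03 and 2.54 FPKM in WT with LPS, 2.27 and 2.24 FPKM in KO without LPS and 2.50 and 2.83 FPKM in KO with LPS. The WT libraries overlapped, and the change was 0.07 ± 0.09 in WT (adjusted p = 0.513) and 0.17 ± 0.09 in KO (adjusted p = 0.139).

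Without LPS no subunit differed between KO and WT at the test's threshold. By limma 0 of 34 passed, 4 had an unadjusted p under 0.05, and voom on rebuilt reads also gave 0; among all genes 5.64% passed by limma, 1.72% higher and 3.92% lower. The 4 were Psma2, Psmd14, Psmd2 and Psmd10, each with both KO libraries below both WT libraries, as 28.2% of all genes had. Psma2, an alpha subunit, was at 9.34 and 9.26 FPKM in WT and at 8.46 and 7.05 FPKM in KO, a difference of -0.24 ± 0.08 (adjusted p = 0.160). Psmd14 differed by -0.20 ± 0.07 (adjusted p = 0.136). The largest positive difference was that of Psma5, 0.13 ± 0.11 (adjusted p = 0.559), and its WT libraries lay within the span of its KO libraries. The median over the 34 was -0.02 beside -0.0024 over all genes.

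With LPS the subunits differed between KO and WT in both directions, by less than 0.5 on the log2 scale. As deposited 3 were higher in KO, Psmc1, Psmd5 and Psmd1, 6 were lower, Psma3, Psma5, Psmb6, Psmb4, Psmb2 and Psmd8, and 25 did not pass. Of all genes 28.9% passed, 10.8% higher and 18.1% lower, so the share of subunits called, 9 of 34, was near the background. These calls depended on scaling: 11 were higher and 0 lower by TPM, 13 and 0 by total reads, and 9 and 0 by quantile normalization. The all-gene median moved from -0.02 as deposited to 0.16 with TPM and 0.14 with total reads. Relative to the all-gene median, the median over the 34 was -0.04 as deposited, -0.03 with TPM, -0.000186 with total reads and 0.06 with quantile normalization.

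Psmc1 (chr12:100110154-100123405), an ATPase whose tail docks into the alpha ring, gave the largest positive difference between KO and WT. It was at 43.6 and 44.2 FPKM in WT with LPS and at 60.1 and 54.1 FPKM in KO with LPS, beside 33.8 and 36.2 FPKM in WT and 34.6 and 34.8 FPKM in KO without LPS. Both KO libraries with LPS lay above every other library, and the genotypes overlapped without LPS. The difference with LPS was 0.37 ± 0.06 (adjusted p = 0.00489), and it also passed by quantile normalization (0.52), total reads (0.58), TPM (0.58) and with each library left out in turn. The LPS change itself was 0.32 ± 0.06 in WT and 0.70 ± 0.06 in KO. Their difference, the interaction, was 0.38 ± 0.09 (adjusted p = 0.0277), and Psmc1 was the 1 subunit of 34 that passed it, beside 16.0% of all genes, 5.64% higher and 10.3% lower. That call was lost with any of 6 libraries left out, with adjusted p of 0.0596 to 0.0959. Within the ATPase ring Psmc1 held 20.5 and 21.1% of the summed FPKM in WT with LPS, 25.6 and 24.5% in KO with LPS and 24.4 to 25.1% in the 4 libraries without LPS. Of the 10 subunits with the ETS letters in their promoter window, Psmc1 alone passed between genotypes with LPS as deposited. The others, among them Psma6, did not pass as deposited. Under TPM Psma6 (0.26, limma, adjusted p = 0.0265) and Psmd2 (0.21, adjusted p = 0.0263) also passed as higher in KO. The letters were in 35.7% of the subunit windows and 21.9% of the windows of genes tested. Whether Elf1 acts on Psmc1 was not tested. The windows of Psma3, Psma5, Psmb4, Psmb6, Psmd1, Psmd5 and Psmd8 held no such letters, and Psmb2 had no window.

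Among the lower genes, Psma3 differed by -0.45 ± 0.12 (adjusted p = 0.0286), Psma5 by -0.39 ± 0.11 (adjusted p = 0.0384) and Psmb6 by -0.25 ± 0.07 (adjusted p = 0.0380). With near-identical copies summed Psma3 stood at -0.45 and Psma5 at -0.39. Psmb4, Psmb2 and Psmd8 differed by -0.24, -0.22 and -0.21. Under TPM the same 6 were between -0.26 and -0.01 and none passed, and under quantile normalization Psmb6 was at 0.02 and Psmd8 at 0.04, with Psmd8 at 0.01 under total reads. Among the higher genes, Psmd5 differed by 0.27 ± 0.07 (adjusted p = 0.0354) and Psmd1 by 0.21 ± 0.06 (adjusted p = 0.0309). Leaving out 1 library at a time could end each of the 9 calls apart from that of Psmc1. The call of Psmb4 was lost without either of 2 libraries. Those of the other genes were each lost without any 1 of 5 to 7 of the 8 libraries. The adjusted p by limma then ran from 0.0513 to 0.165. The interaction of Psma5 was -0.52 ± 0.16 (adjusted p = 0.0693) and did not pass.

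**Figure D5:**
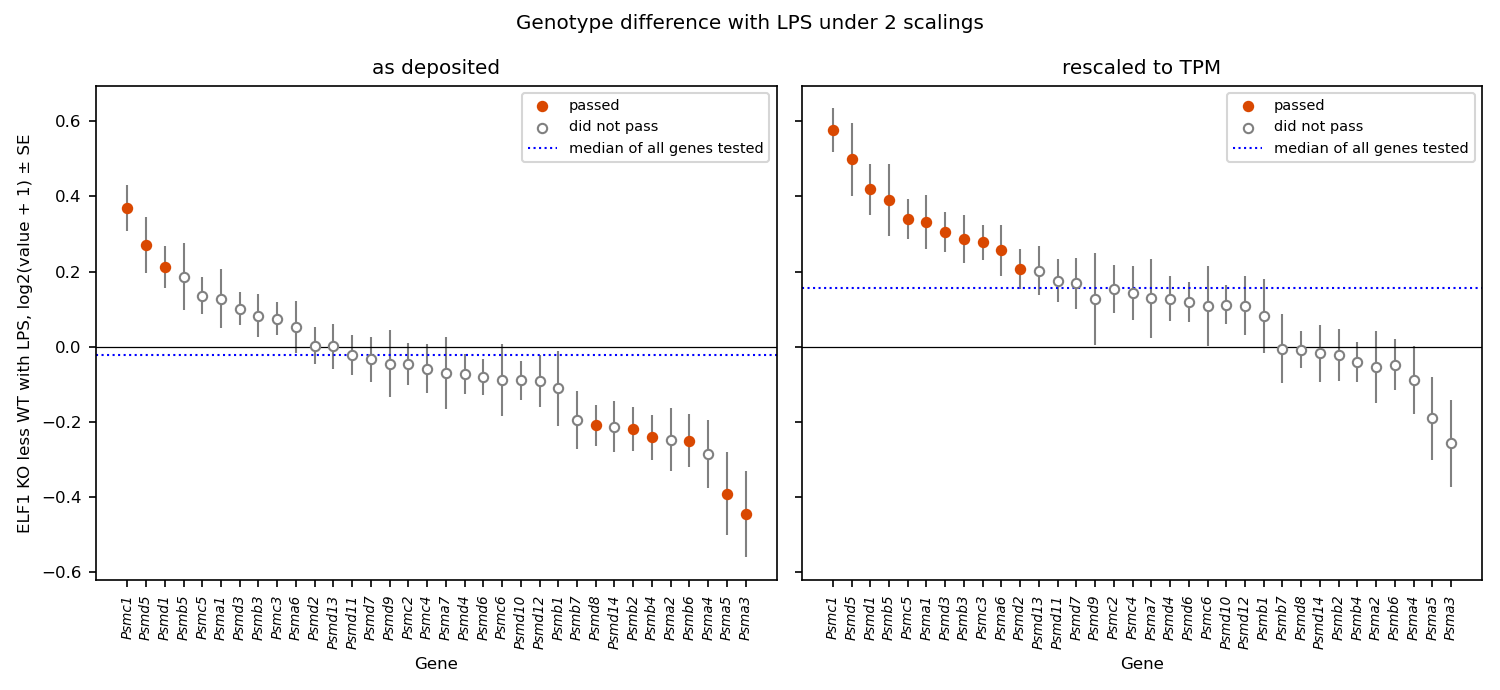
Difference between ELF1 KO and WT with LPS for the 34 subunits, as log2(value + 1) ± SE from limma, as deposited and after rescaling to TPM; filled points passed and the dotted line is the median of all genes tested. As deposited 3 genes pass above 0 and 6 below, while under TPM 11 pass above 0 and none below.

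Genes that work with the constitutive subunits were read from lists of 48 genes. The counts and changes of all these lists are given as deposited only. TPM moved the median LPS change of all genes from 0.04 to -0.51 in WT and from 0.02 to -0.42 in KO. Calls on small LPS changes in these lists can therefore depend on the scaling. Over all genes tested, 37.7% rose and 33.9% fell with LPS in WT, 34.7% and 31.2% did so in KO, 18.1% were lower in KO with LPS and 10.3% passed the interaction as lower. Of the 7 immunoproteasome subunits and activators, 7 rose with LPS in both genotypes, with a median of 3.06 in WT beside 0.78 for the constitutive subunits. With LPS 6 of these 7 were lower in KO, and 6 of 7 passed the interaction as lower. Among the assembly factors of the core particle, Pomp, the maturation chaperone, rose by 1.10 in WT and 0.83 in KO. Psmg1 and Psmg2, which together seed the alpha ring, fell by 0.55 and 0.46 in WT and did not pass in KO. Psmg3 and Psmg4 did not pass in either. With LPS Psmg1 and Psmg2 were higher in KO than in WT, by 0.68 and 0.70 (limma, adjusted p = 0.0264 and 0.00118). Pomp was lower there, at -0.31 (adjusted p = 0.0132), and 10.8% of all genes were higher. Psmg2 passed the interaction, at 0.64 (adjusted p = 0.0133), and Psmg1 did not. Of 9 further subunits and associated proteins 7 rose, 0 fell and 2 did not pass in WT. The largest rises were those of Txnl1, a thioredoxin-like protein of the regulatory particle, by 1.01, and Ecpas by 0.70. In KO 5 rose, 1 fell (Uchl5, a deubiquitinase, at -0.45) and 3 did not pass.

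Of 12 shuttle and unfoldase genes 7 rose, 4 fell and 1 did not pass in WT, and 8 rose, 4 fell and 0 failed to pass in KO, so the share that fell was near that of all genes. The largest rises in WT were those of Zfand5, which binds the proteasome, by 1.42 and Nploc4, a cofactor of the unfoldase Vcp, by 0.75. The largest falls were those of Zfand2a, at -1.26, and Ddi2, the protease that activates Nfe2l1, at -1.22. Among the ubiquitin and activation genes, the activating enzyme Uba1 rose by 1.26 and the polyubiquitin gene Ubb by 1.16 in WT. Of 9 transcription factors known to act on proteasome genes 6 rose, 0 fell and 3 did not pass in WT. Maff rose by 1.91, Mafk by 1.89 and Nfe2l1, the activator of proteasome genes when the proteasome is inhibited, by 1.40. In KO 7 rose, 0 fell and 2 did not pass, with Maff at 2.24, Nfe2l1 at 1.74 and Mafk at 0.73. Of the 9, 1 passed the interaction as lower and 1 as higher. The LPS change of Mafk was smaller in KO, with an interaction of -1.16 ± 0.08 (limma, adjusted p = 0.000779). That of Nfe2l1 was larger in KO, with an interaction of 0.34 ± 0.09 (adjusted p = 0.0488).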

How the data were processed

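The authors deposited 1 table of FPKM for 54532 genes in 8 libraries, with gene positions and gene lengths. DESeq2 and the genome build mm10 are listed in the submitters' processing notes, without versions or roles. For aligner, counter, annotation release and strand setting the sources used here name none. Total RNA was extracted with TRIzol and libraries were made at Novogene, per the labels' protocols. Each FPKM multiplied by its gene length fell on a whole number of steps (tolerance 0.001, 100% of nonzero values), from which read counts were rebuilt. Implied library sizes tracked median-of-ratios factors, from which the authors' scaling is inferred. Where no read was counted, up to 3 reads (0.166 to 0.190 CPM, by library) cannot be told from none, for counting error only.

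Differences were tested with limma-trend 3.58.1 (R 4.3.3) on log2(FPKM + 1) of the deposited values, with the 4 groups of 2 libraries in 1 model. Tested were the 11887 genes that reached 1 FPKM in 2 or more libraries. The p-values are two-sided, with Benjamini-Hochberg adjustment over these genes in each of 5 comparisons and a threshold of 0.05. The comparisons share libraries. The log2 changes understate those of low genes. Voom on the rebuilt read counts was an alternative. The fit was also run on simulated reads with a fixed spread, where 200 of the 11887 genes were changed in WT with LPS. It recovered 30% of 1.5-fold rises, 76% of 2-fold rises, 96% of 4-fold rises and 64% of falls to 0.5-fold. There were 11 false calls. In such a setting changes below 1.5-fold can be missed often. In the real LPS comparison in WT 71.5% of genes passed, so these recovery rates do not carry over to it. Near-identical copies were found with blastn 2.17.0 against GENCODE M21, at 95% identity over at least 200 bases. The deposited length equalled the summed exons of that annotation for 34 of the 35 genes. Fully described subunits were the catalytic subunits, Psmd14, Psmd2, Psmd4, Psma3, the 3 chaperones and the 3 largest rises and falls of each comparison; others are given by range, or named where they did not pass. The subunits and lists were chosen with earlier results of these data known. The count over the list of ubiquitin and activation genes is not reported here.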

Additional observations from a re-analysis of the deposited data

Results flagged for a closer look

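For Psmc1 the LPS change differed between the genotypes by a test of the difference itself: it was 0.38 ± 0.09 larger in KO than in WT (limma interaction, adjusted p = 0.0277), with LPS changes of 0.70 in KO and 0.32 in WT. Both KO libraries with LPS, at 60.1 and 54.1 FPKM, were above both WT libraries with LPS, at 43.6 and 44.2 FPKM. The adjusted p over the alternatives that leave out 1 library ran from 0.0194 to 0.0959. It was 0.0513 with a replicate block.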

How the results depend on the processing

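The LPS rise of the subunits relative to all genes had 1 direction in every alternative run, with a median difference of 0.38 to 0.79 in WT and 0.48 to 0.81 in KO. Against 0.75 in both, that difference was 0.65 in WT and 0.63 in KO with a pseudocount of 5, 0.60 and 0.63 with an FPKM minimum of 5, 0.65 and 0.67 with libraries scaled to total reads, and 0.38 and 0.48 with quantile normalization. Counts moved most with scaling. TPM gave 18 higher and 7 lower in WT and 3 lower in KO, total reads gave 17, 8 and 2, and quantile normalization gave 19, 8 and 4. For KO against WT with LPS those settings gave 11, 13 and 9 higher and 0 lower, and 3, 4 and 4 higher in the interaction. The quantile values of the median difference were 0.063 for KO against WT with LPS and 0.091 for the interaction. With no filter on low values 1 was higher and 0 lower with LPS, and 0 passed the interaction. An FPKM minimum of 5 gave 1 lower in the interaction, and limma without a trend gave 2 lower with LPS and 0 in the interaction. Voom gave 2 higher and 3 lower in the interaction, and 1684 genes for KO against WT without LPS beside 671. A model with only the libraries compared gave 51 of these, and 1 higher and 3 lower subunits with LPS. Among the fully described subunits the change itself turned sign in WT for Psmb5 (-0.032 under TPM, -0.29 quantile, -0.057 total reads), Psmd2 (-0.24, -0.51, -0.27), Psmd5 (-0.24 TPM, -0.22 total reads) and Psmd9 (-0.46, -0.39). So did Psmd2 in KO (-0.22 quantile) and Psmb6 for KO against WT with LPS (0.022 quantile). Of all 34, counting subunits that passed in either setting, 13 turned sign in WT under TPM, 13 under total reads and 10 under quantile normalization, and 4, 3 and 5 did so in KO. For KO against WT with LPS, 2 turned under total reads (Psmd8, Psmd11) and 2 under quantile normalization (Psmb6, Psmd8). The cause of these moves was not tested.

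Leaving out 1 library in turn gave 29 to 31 higher in WT and 31 to 33 in KO. For KO against WT with LPS it gave 1 to 2 higher and 0 to 5 lower, with 2114 to 3455 genes called in all and a median difference of -0.074 to 0.021. It gave 137 to 536 genes without LPS, and in the interaction 963 to 1739 genes, 0 to 1 higher and 0 to 2 lower subunits. The lowest count of lower subunits, 0, came without WT with LPS replicate 2 and without KO with LPS replicate 2.

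Replicate numbers did not pair the libraries, since deviations of same-numbered libraries correlated between -0.077 and 0.033. A replicate block gave 406 genes for KO against WT without LPS, 1 higher and 7 lower subunits with LPS, and 0 higher in the interaction.

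With 2 libraries a group, small differences between genotypes were near the limit of the test. Ratios of catalytic pairs change level with gene length, by the same factor in every library. Reads of Psma2, Psma3, Psma5, Psmb7, Psmc3, Psmd1, Psmd11 and Psmd13 cannot be fully told apart from those of near-identical copies or of overlapping genes.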
